A study of Mus musculus with 18 samples.

Results

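The miR-133 family is described here through 3 of the 2042 miRNA names in the deposited table: mmu-miR-133a-3p, mmu-miR-133b-3p and mmu-miR-133a-5p, where mmu marks the mouse. They were taken by name, with earlier results of these data known, and followed through all 18 small RNA libraries of the study. The cells were C2C12, a mouse myoblast line that fuses into myotubes when serum is lowered. Differentiated cells had spent 7 days in 2% horse serum, and undifferentiated cells grew in 10% fetal calf serum. From each state there were 3 libraries of RNA eluted from an MRTF-A 3'UTR bait, 3 of RNA eluted from an MS2 control bait and 3 of input RNA from the lysate. In this purification, called miTRAP, a bait RNA with MS2 hairpins is held on a resin, lysate is passed over it, and the small RNA that stays bound is sequenced. MRTF-A, encoded by Mrtfa, is a coactivator of serum response factor (SRF). All cells came from 1 line. Whether replicate libraries stem from separate cultures is not stated in the labels. A p-value therefore reflects the spread among these libraries, which could be technical.

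miR-133 is one of the myomiRs, miRNAs made mainly in skeletal and heart muscle. Its hairpins lie in clusters with those of miR-1 and miR-206 and are transcribed with them. In myoblasts miR-133 is known for repressing Srf and favouring proliferation, whereas miR-1 and miR-206 favour differentiation. Both 3p names are guide strands, which differ little in sequence and have the same seed. miR-133a-5p is the other arm of the miR-133a hairpins and is usually degraded as a passenger strand.

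The mature sequences printed here, from RefSeq (GRCm38.p6), were chosen because the results turn on the seed of miR-133, on the 2 arms of a hairpin and on the cluster partner. Capitals mark the seed, bases 2 to 8 from the 5′ end. Of the 3 members, 1 was matched in the RefSeq table.
miR-133b-3p: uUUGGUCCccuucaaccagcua
miR-133b-5p: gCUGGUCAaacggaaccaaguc
miR-206-3p: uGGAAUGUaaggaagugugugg
miR-133b-3p lies at chr1:20682834-20682855 on the plus strand and is 22 bases long. In GENCODE vM21 (GRCm38) its hairpin Mir133b, at chr1:20682769-20682887, overlaps an exon of the long non-coding RNA gene Gm28653 and begins 3686 bases after the end of Mir206 (chr1:20679010-20679082). One of the hairpins of miR-133a, Mir133a-2, lies at chr2:180398379-180398482, 9254 bases after the end of Mir1a-1.

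Values are normalised CPM, reads divided by an effective library size that the authors set and scaled. Whole reads could be recovered from them. The MRTF-A eluates held 107165 to 544504 reads each, the MS2 control eluates 15562 to 39695 and the inputs 294112 to 860828. One read was worth 3.33 to 15.3 CPM, 11.9 to 34.3 CPM and 1.66 to 3.05 CPM in these kinds of library, so the MS2 control saw rare miRNAs least well. The letters A, B and C name the libraries of a group and do not pair libraries across groups. Human-named miRNAs took 0.755 to 0.930% of the reads of 3 MS2 libraries (differentiated A and B, undifferentiated A) and 0.0900 to 0.115% of the other 3. Of 4 miRNA markers of striated muscle, all had reads in differentiated input and 1, miR-206-3p, had reads in undifferentiated input. The blood, endothelial, epithelial, liver and heart-only markers each summed to at most 9.18 CPM in any input library. The neural markers summed to 38.7 to 67.6 CPM in differentiated and 158 to 262 CPM in undifferentiated input, all from miR-9, with the defining marker miR-124 at 0 reads. Their part in the results was not tested.

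Both 3p names rose strongly with differentiation in the input, and miR-133a-3p became one of the most abundant miRNAs of the cells. miR-133a-3p stood at 30478, 43409 and 48008 CPM in the differentiated input libraries, against 1218, 147 and 451 CPM in the undifferentiated ones. The groups were far apart, and undifferentiated library A was the highest of its group, 8.27 times the lowest. The log2 fold change on the log2(CPM + 10) scale was 6.48 ± 0.56 (SE), with an adjusted p of 2.52e-06 from limma over all 313 miRNAs tested. Only miR-1a-3p rose more among these 313. In reads, miR-133a-3p took 4.14 to 7.11% of differentiated input, where it ranked between 4 and 7 of all names, against 0.0151 to 0.136% of undifferentiated input.

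miR-133b-3p, the form made from the miR-206 locus, stood at 9798, 17412 and 20580 CPM in differentiated input and at 2052, 206 and 739 CPM in undifferentiated input. Again the groups did not overlap, and undifferentiated library A was highest. Its log2 fold change was 4.46 ± 0.62 (limma adjusted p = 6.44e-05), the third largest rise of the 313. Of the miRNAs tested in this comparison, 16.0% were called higher and 62.3% were called in either direction, around a median log2 fold change of -0.64. Against that median the 3p names stood at 7.12 for miR-133a-3p and 5.09 for miR-133b-3p.

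miR-133a-5p was rare. It had 8, 28 and 25 reads in differentiated input, against 1, 0 and 1 reads in undifferentiated input, which is 40.4 ± 22.2 CPM against 1.57 ± 1.52 CPM (SD, n = 3 each). It did not pass the filter on low values in the input. The pooled ratio was 25.6 (95% exact binomial interval 6.78 to 216, which covers counting error only). With no filter the fitted log2 fold change was 2.01 ± 0.34 (limma adjusted p = 7.30e-08 over 1415 names). That p takes its spread almost wholly from the 1415 names together, not from the libraries of this name. The 10 CPM added before the log makes the fold of so few reads smaller. The other 5p arm, miR-133b-5p, had 17, 36 and 14 reads in differentiated and 19, 6 and 10 reads in undifferentiated input, and its log2 fold change of 0.47 ± 0.41 did not pass (limma adjusted p = 0.339). miR-133c, a further name of the table, had 2 reads in each state.

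**Figure D1:**
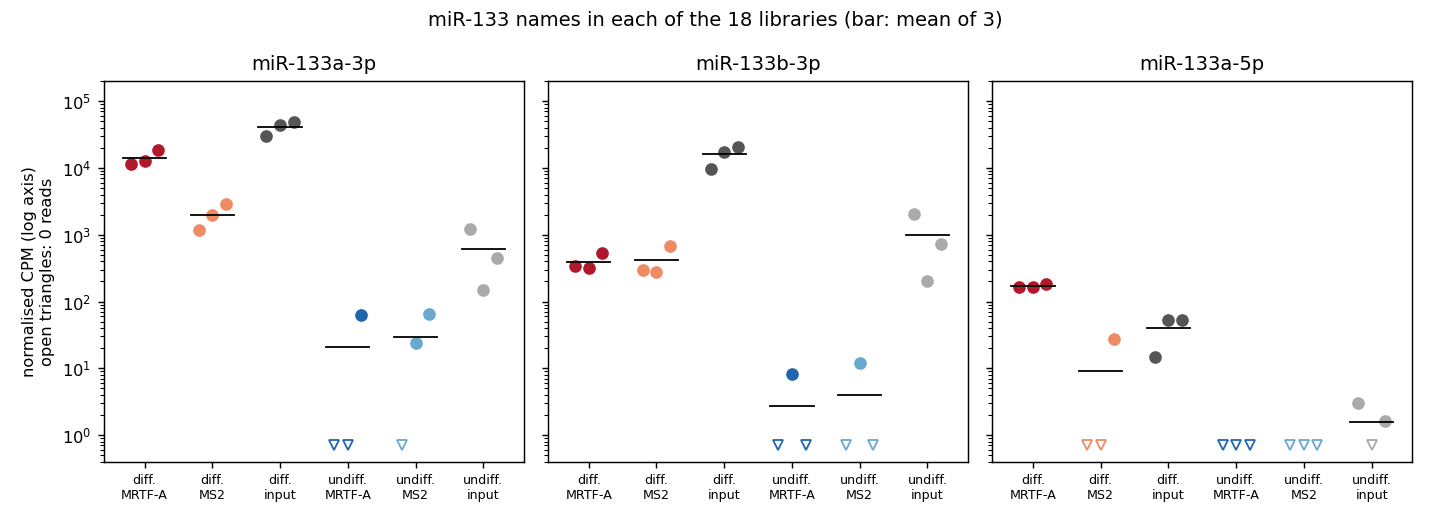
Normalised CPM of the 3 miR-133 names (panels) in every library on a log axis, by state and kind of library, with open triangles for libraries with 0 reads and a bar for the mean of 3. miR-133a-3p lies between 30478 and 48008 CPM in differentiated input, against 147 to 1218 CPM in undifferentiated input, and all 3 names are at or near 0 reads in undifferentiated eluates.

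Which of the near-identical names took the reads also moved with the state. miR-133a-3p held 75.7, 71.4 and 70.0% of the reads of both 3p names in differentiated input libraries A, B and C, against 37.2, 41.7 and 37.9% in undifferentiated input. The widest 95% exact binomial interval, 33.0 to 50.8% in undifferentiated library B, did not reach any interval of the differentiated libraries. The means were 72.3 ± 2.96% and 39.0 ± 2.43% (SD, n = 3 each), a difference of 33.4 percentage points. An exact permutation test over the libraries gave p = 0.10, two-sided, the smallest that 3 against 3 libraries allow. This share does not depend on the scaling of the libraries. How reads that match both names were assigned is not given in the sources used here, and its part in the split was not tested.

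The cluster partners had fewer reads than miR-133 in every input library. In differentiated input there were 4.30, 6.73 and 6.26 reads of miR-133a-3p for each read of miR-1a-3p, the partner at its loci. In undifferentiated input miR-133a-3p had 725 reads in all and miR-1a-3p had 0. A count of 0 allows up to 9.14 CPM of miR-1a-3p in library A, 8.34 CPM in B and 4.97 CPM in C, so miR-133a-3p was above that limit in each. For the chromosome 1 pair, miR-133b-3p had 8.94, 12.4 and 14.7 reads per read of miR-206-3p in differentiated input and 12.04, 2.64 and 6.56 in undifferentiated input, so the states overlapped. Undifferentiated library A was also the highest of its group for miR-206-3p, at 171 CPM against 77.8 CPM in B and 113 CPM in C. These are ratios of reads, which need not be ratios of molecules.

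Of the 12 other myomiR names, which include these partners, 7 could be tested in the input. miR-1a-3p, miR-1b-5p, miR-208b-3p and miR-499-5p had 0 undifferentiated reads and passed the filter through the differentiated libraries alone, which fixed their direction. The other 3 names rose, where 16.0% of all 313 were called higher. They were miR-206-3p, at 3.38 ± 0.35 (limma adjusted p = 8.55e-06), and miR-486-5p and miR-3107-5p, at 2.83 and 2.84 (limma adjusted p = 1.32e-05 for each), which have 1 mature sequence under 2 names.

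In differentiated cells miR-133a-3p was higher with the MRTF-A bait than in the MS2 control on the deposited scale, and for miR-133b-3p no difference was detected. miR-133a-5p had reads in every bait library and 1 read in the control. miR-133a-3p stood at 11523, 12507 and 18320 CPM in the bait eluates and at 1195, 1957 and 2843 CPM in the control. The groups did not overlap on this scale. The log2 fold change was 2.87 ± 0.82 (limma adjusted p = 0.00654 over 169 miRNAs). Of these 169, 79.3% were called, 57.4% higher with the bait and 21.9% lower, and the median was 2.37, so miR-133a-3p was 0.50 above the median and ranked 77 of 169.

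The call for miR-133a-3p in limma changed with the scaling and with the pseudocount. As a share of reads the groups overlapped, at 0.639, 0.689 and 1.16% with the bait against 0.159, 0.243 and 0.675% in the control. The highest control library, C, had the fewest reads of all and is among the 3 MS2 libraries with few human-named reads. The log2 fold change was 1.43 with library totals (limma adjusted p = 0.178) and 1.95 with RLE factors (adjusted p = 0.0681), and neither passed. Nor did it pass in limma with a pseudocount of 1 CPM (2.88, adjusted p = 0.151). Both edgeR (2.81, adjusted p = 8.77e-05) and DESeq2 (2.08, adjusted p = 4.21e-07) called miR-133a-3p. With only the MS2 libraries with few human-named reads the log2 fold change was 2.28, a value against 1 differentiated control library, C.

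miR-133b-3p stood at 344, 317 and 530 CPM with the bait (277 reads in all) and at 299, 275 and 677 CPM in the control (42 reads). The groups overlapped on this scale, with the highest value in the control. The log2 fold change was 0.02 ± 0.53 (limma adjusted p = 0.976), with a 95% interval of -1.13 to 1.16, and relative to the median of all miRNAs tested it stood at -2.35. Its sign turned to negative with other scalings, down to -1.39 with library totals (limma adjusted p = 0.0861). As a share of reads the control lay above the bait, at 0.0398, 0.0341 and 0.161% against 0.0191, 0.0174 and 0.0336%.

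miR-133a-5p had 38, 50 and 35 reads with the bait, or 166, 167 and 180 CPM, against 0, 0 and 1 reads in the control. The bait libraries lay close together, and all were above the control, where 3 reads are worth 81.2 to 102.99 CPM. With 1 control read the pooled ratio was 16.3 (95% exact binomial interval 2.88 to 651). The fitted log2 fold change was 3.54 ± 0.44 (limma adjusted p = 1.25e-05), which was not called by DESeq2 (adjusted p = 0.126). In the eluates this name passed the filter through the differentiated bait libraries alone, so its direction against the control and between the states was fixed by the filter.

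In undifferentiated cells both eluates held almost no reads of the family. miR-133a-3p had 0, 0 and 5 reads with the bait and 0, 2 and 3 reads in the control. On these reads the log2 fold change was -0.59 ± 0.82, with a 95% interval of -2.38 to 1.20 (limma adjusted p = 0.557, in a comparison where 60.4% of 169 miRNAs were called and 17.2% were called lower). miR-133b-3p had 1 read with the bait and 1 in the control, and miR-133a-5p had 0 in both, so no fold is given for them. Any retention by the bait in this state was not detectable at this depth. Without a read, miR-133a-3p could still stand at up to 46.0 CPM in bait library A and 98.5 CPM in control library A.

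The difference of the bait effect between the states was 3.46 ± 1.16 for miR-133a-3p (limma adjusted p = 0.0646) and 0.10 ± 0.74 for miR-133b-3p (adjusted p = 0.974). The undifferentiated side of these values rests on 5 reads in each kind of eluate for miR-133a-3p and 1 in each for miR-133b-3p. They therefore cannot show whether the bait effect was alike in the 2 states. For miR-133a-5p the difference was 3.54 ± 0.62 (limma adjusted p = 0.00761), in a comparison where 8.28% of 169 miRNAs were called higher. That value repeats its differentiated fold change, since no undifferentiated eluate held a read of it, and neither edgeR (adjusted p = 1.00) nor DESeq2 (adjusted p = 0.344) called it.

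Between the MRTF-A eluates of the 2 states, both 3p names were higher in differentiated cells, where 23.7% of 169 miRNAs were called higher. No undifferentiated eluate held more than 64.0 CPM of miR-133a-3p or 11.9 CPM of miR-133b-3p. Both names passed the filter through the differentiated eluates alone, which fixed their direction between the states. The log2 fold change was 9.48 ± 0.82 for miR-133a-3p (limma adjusted p = 4.04e-06), second only to that of miR-1a-3p. For miR-133b-3p, with 277 differentiated reads and 1 undifferentiated read, the log2 fold change was 5.02 ± 0.53 (limma adjusted p = 1.37e-05) and the pooled ratio 101 (95% exact binomial interval 18.04 to 4018). miR-133a-5p, with 123 and 0 reads, was at least 4.71-fold higher, counting 3 reads per undifferentiated library, in a direction that the filter fixed.

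**Figure D2:**
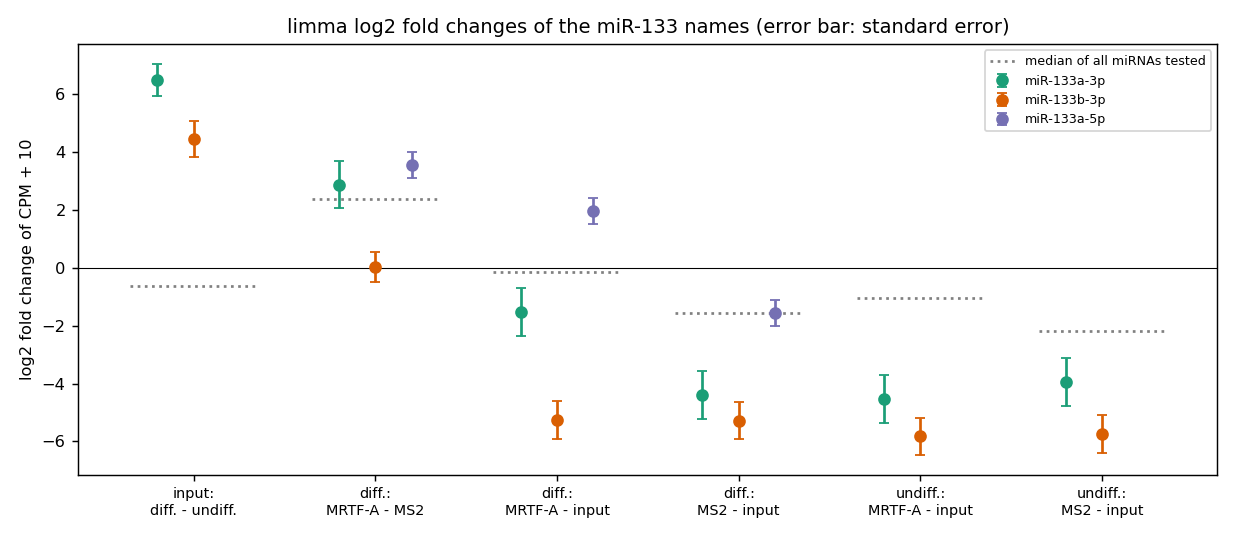
limma log2 fold changes of the 3 names on the log2(CPM + 10) scale in 6 comparisons, with standard errors as bars and a dotted line at the median of all miRNAs tested. miR-133a-5p is drawn only in the comparisons within differentiated cells. The undifferentiated values of miR-133b-3p rest on 1 read in each kind of eluate. In differentiated cells miR-133a-3p is at 2.87, miR-133b-3p at 0.02 and miR-133a-5p at 3.54 for MRTF-A bait against MS2 control, around a median of 2.37.

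Set against the input of differentiated cells, the 3 names behaved unlike one another in the MRTF-A eluates. miR-133b-3p fell to 397 ± 116 CPM in the eluates, against 15930 ± 5541 CPM in input (SD, n = 3 each). Its log2 fold change of -5.26 ± 0.65 (limma adjusted p = 1.98e-06) ranked 296 of 305 from the top, in a comparison where 30.8% of miRNAs were lower and 31.1% higher. miR-133a-3p averaged 14116 ± 3673 CPM in the eluates and 40632 ± 9089 CPM in input, with no overlap of the libraries. Its log2 fold change of -1.53 ± 0.83 did not pass with limma (adjusted p = 0.117), but it did with edgeR (adjusted p = 0.0194), with DESeq2 (adjusted p = 0.0268) and with library totals (limma, -2.72, adjusted p = 0.0160).

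miR-133a-5p was higher in the eluates, at 171 ± 8.03 CPM against 40.4 ± 22.2 CPM in input (SD, n = 3 each). All 3 eluate libraries were above all 3 inputs, and the log2 fold change was 1.97 ± 0.45 (limma adjusted p = 0.00102). It was 0.92 with library totals (adjusted p = 0.176). In this fit of all 18 libraries too, miR-133a-5p passed the filter through the differentiated MRTF-A eluates alone, which fixed its direction against input.

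The MS2 control also held less of both 3p names than the input did. In differentiated cells the log2 fold change of control eluate over input was -4.40 ± 0.83 for miR-133a-3p (limma adjusted p = 0.000179) and -5.28 ± 0.65 for miR-133b-3p (adjusted p = 3.06e-06), against a median of -1.58 and 53.8% of 305 miRNAs lower. miR-133a-5p, with 1 control and 61 input reads, was at the median, at -1.58 ± 0.45 (limma adjusted p = 0.00535), and its pooled ratio of input to control, 3.805 (95% exact binomial interval 0.658 to 153), had an interval that includes equal levels. Both eluates lay far below input for miR-133b-3p, whereas miR-133a-3p was low in the control and closer to input with the bait.

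In undifferentiated cells miR-133a-3p was at -4.52 ± 0.83 in the MRTF-A eluates (limma adjusted p = 0.000119) and at -3.93 ± 0.83 in the control (adjusted p = 0.000413) relative to input. The medians of all miRNAs tested were -1.04 for the bait and -2.19 for the control. With 5 reads of miR-133a-3p in each kind of eluate, the size of its folds depends on the 10 CPM added before the log. miR-133b-3p had 1 read in each kind of eluate and 1194 in input. The pooled ratio of input to eluate was 245 (95% exact binomial interval 43.9 to 9680) for the bait and 149 (95% exact binomial interval 26.7 to 5903) for the control. Without undifferentiated input library A these ratios were 143 and 87.2. In these comparisons 45.2% of 305 miRNAs were lower with the bait than in input and 62.6% were lower in the control than in input.

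The within-library split of the 3p names showed the same contrast without any scaling. Of the reads of both 3p names in differentiated cells, miR-133a-3p held 97.1, 97.5 and 97.2% in the MRTF-A eluates, 80.0, 87.7 and 80.8% in the MS2 control and 75.7, 71.4 and 70.0% in input. That is 33.5, 39.5 and 34.6 reads of miR-133a-3p for each read of miR-133b-3p with the bait, 4, 7.13 and 4.2 in the control and 3.11, 2.49 and 2.33 in input. The 3 kinds of library did not overlap. The mean share was 24.9 percentage points higher with the bait than in input and 14.5 points higher than in the control, and 10.47 points higher in the control than in input. Each of the 5 exact permutation tests on shares gave p = 0.10, adjusted p = 0.10, the smallest that 3 against 3 libraries allow.

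The arms of the miR-133a hairpin were also split differently. miR-133a-5p made up 1.42, 1.31 and 0.973% of the reads of both arms in the MRTF-A eluates of differentiated cells, against 0.0482, 0.121 and 0.112% in input. The eluate libraries all lay above the inputs (1.23 ± 0.233% against 0.0937 ± 0.0397%, SD, n = 3 each, exact permutation p = 0.10). In the control the 1 read in library C left an interval of 0.0239 to 5.14%, which covers the bait and the input values. The 5p share was not higher in miR-133a alone. For miR-133b it was 0.284 ± 0.124% in differentiated input, 10.8 ± 4.02% with the bait and 11.3 ± 8.15% in the control (SD, n = 3 each). The control value rests on 4 reads of miR-133b-5p. In undifferentiated input the 5p share of miR-133b was 4.14 ± 2.92% (SD, n = 3). On the deposited scale miR-133b-5p itself averaged 43.0 CPM in differentiated input, 45.3 CPM with the bait and 43.0 CPM in the control. Its share was thus higher where miR-133b-3p was lower, whereas the level of miR-133a-5p was itself higher with the bait than in input.

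**Figure D3:**
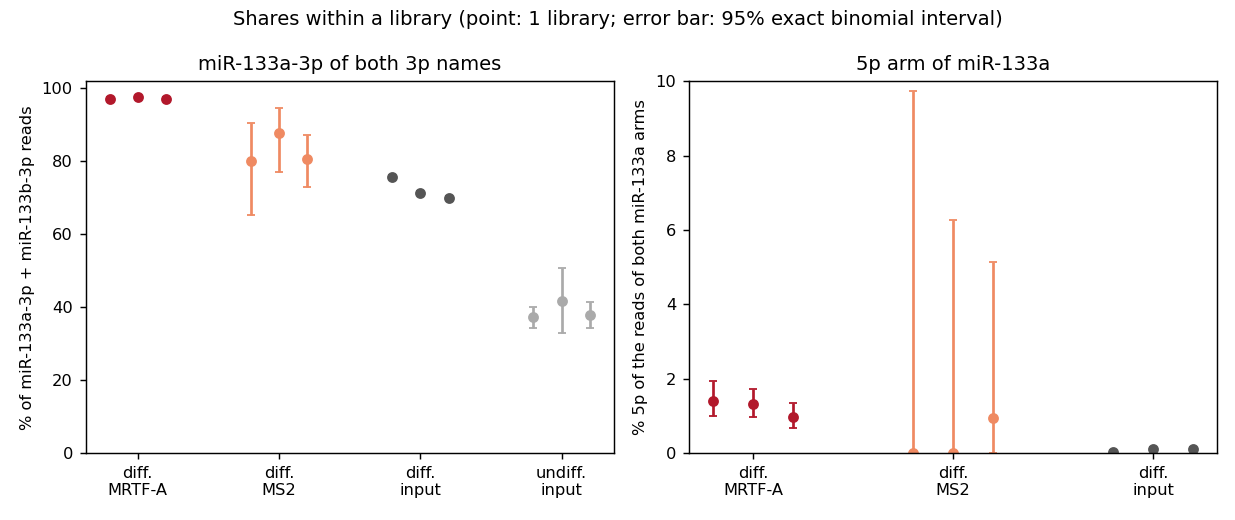
Left: miR-133a-3p as a percentage of the reads of miR-133a-3p and miR-133b-3p; right: the 5p arm as a percentage of the reads of both miR-133a arms; each point is 1 library with its 95% exact binomial interval, by kind of library and state. miR-133a-3p holds 97.1 to 97.5% with the MRTF-A bait, 80.0 to 87.7% in the MS2 control and 70.0 to 75.7% in differentiated input, against 37.2 to 41.7% in undifferentiated input.

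In the MRTF-A eluates of differentiated cells the cluster partners outnumbered miR-133. In differentiated cells there were 0.0208, 0.0204 and 0.0341 reads of miR-133a-3p for each read of miR-1a-3p with the MRTF-A bait, and 0.243, 0.282 and 0.522 in the control, against 4.30, 6.73 and 6.26 in input. For miR-133b-3p and miR-206-3p the ratios were 0.0190, 0.0162 and 0.0271 with the bait, 1, 1 and 2.78 in the control, and 8.94, 12.4 and 14.7 in input. Thus both 3p names outnumbered their partners in every differentiated input library and were outnumbered in every differentiated bait eluate, while in the control miR-133b-3p equalled miR-206-3p in libraries A and B and outnumbered it in C. Relative to input, the partners were higher with the bait, at 6.33 ± 0.61 for miR-1a-3p (limma adjusted p = 1.44e-07) and 3.88 ± 0.53 for miR-206-3p (adjusted p = 6.55e-06). Of the 12 other myomiR names 6 were tested there, and miR-1a-3p, miR-206-3p and miR-1b-5p were higher and miR-499-5p lower. Of all 305 miRNAs in that comparison, 31.1% were called higher and 30.8% lower. miR-499-5p passed the filter through differentiated input alone, which fixed its direction. miR-1b-5p passed it through the differentiated eluates alone and not through input. That favoured its direction against input, so its call is not counted as support. Against the control all 5 tested were higher, in a comparison where 57.4% of 169 miRNAs were called higher. Among them miR-1a-3p (6.63) and miR-206-3p (6.08) stood above the median of 2.37, while miR-486-5p (2.37) and miR-3107-5p (2.27), 1 sequence under 2 names, stood at or below it.

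**Figure D4:**
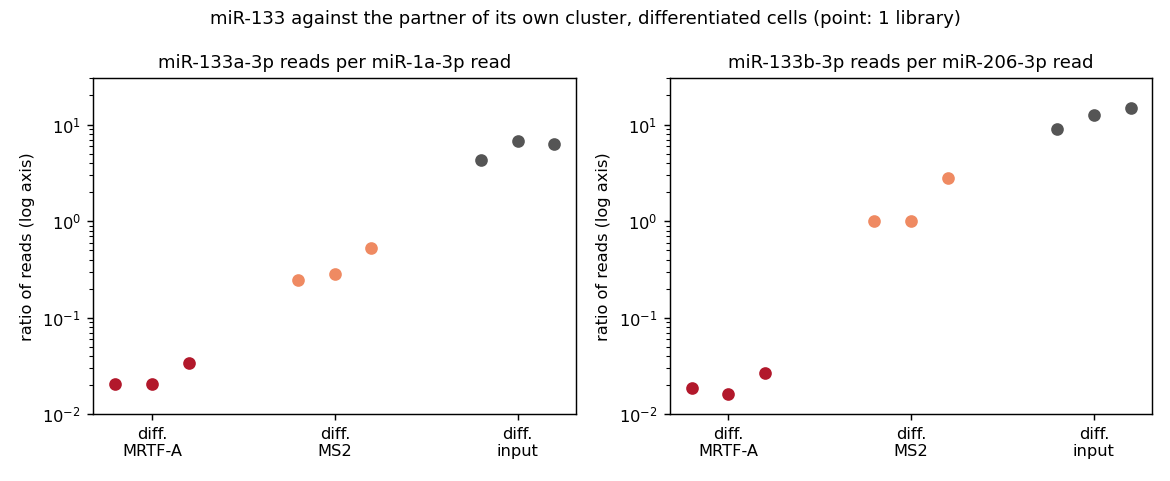
Reads of miR-133a-3p per read of miR-1a-3p (left) and of miR-133b-3p per read of miR-206-3p (right) in the differentiated libraries, on a log axis, each point 1 library. The left ratio is 0.0204 to 0.0341 with the MRTF-A bait, 0.243 to 0.522 in the MS2 control and 4.30 to 6.73 in input.

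No seed match of miR-133 was found in the annotated Mrtfa 3'UTR. The longest one in GENCODE vM21, 1004 bases, was searched on the transcribed strand for GGACCAA (opposite bases 2 to 8 of the printed miR-133b-3p), GACCAAA (opposite bases 2 to 7, then an A) and GACCAA (contained in both), with 0 matches to each. Among the first 1004 bases of the 3'UTRs of 10215 other genes, 6.05%, 6.96% and 19.5% held them, in that order. The labels do not give the bases of the bait, so it may differ from this 3'UTR, and no match says only that these letters are not in this window.

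Over all 6 groups the order of levels on the deposited scale differed between the names. miR-133a-3p was highest in differentiated input, then in the differentiated MRTF-A eluates, with no overlap. The differentiated MS2 control (1195 to 2843 CPM) and undifferentiated input (147 to 1218 CPM) came next and overlapped, and the undifferentiated eluates were at 0 to 64.0 CPM. For miR-133b-3p the differentiated eluates of both baits (275 to 677 CPM) lay within the range of undifferentiated input (206 to 2052 CPM). miR-133a-5p was highest in the differentiated MRTF-A eluates, and differentiated input (14.7 to 53.8 CPM) overlapped the control (0 to 27.1 CPM). The order changed with the scale. As a share of reads, miR-133a-3p in the differentiated control (0.159 to 0.675%) overlapped the bait (0.639 to 1.16%) and lay above undifferentiated input (0.0151 to 0.136%). miR-133b-3p with the differentiated bait (0.0174 to 0.0336%) then reached below undifferentiated input (0.0210 to 0.229%).

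Among 304 other names kept over the 18 libraries, those whose log2(CPM + 10) followed miR-133a-3p most closely, outside its family, were miR-128-3p (Pearson r = 0.92), miR-26a-5p (r = 0.91), miR-3107-5p (r = 0.87), miR-486-5p (r = 0.86) and miR-181a-5p (r = 0.85). miR-3107-5p and miR-486-5p are again 1 sequence. For comparison, r with miR-133a-3p was 0.89 for miR-133b-3p and 0.76 for miR-133a-5p. These values describe 18 libraries that fall into 6 groups and share their scaling, so they carry the differences between groups. miR-128-3p, best known from brain, stood at 249 to 643 CPM in the differentiated MRTF-A eluates and 1792 to 2510 CPM in differentiated input, and was at 0 reads in the undifferentiated MRTF-A eluates.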

How the data were processed

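Small RNA libraries were sequenced to 50 bp, per the labels. The submitters' processing notes list edgeR 3.18.1, featureCounts 1.4.6, Bowtie2 2.0.13 and cutadapt 1.4.2, with the build GRCm38/mm10. The strand setting and how multi-mapping reads were counted are not stated there. Each deposited signal is a normalised CPM by the authors, whose normalisation factors equalled TMM factors recomputed over the 18 libraries within 4e-15. All values were whole multiples of 1 step per library (100% within 0.01 read), which gave whole reads. The log2 fold changes and p-values deposited by the authors were not used. Columns were matched to groups by name, and 0 columns of samples stayed unused.

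The plan named limma for normalised values, so limma 3.58.1 (R 4.3.3, trend) on log2(CPM + 10) was the main test, on miRNAs kept by filterByExpr on the recovered reads. The 6 inputs, the 12 eluates or all 18 libraries were fitted, with Benjamini-Hochberg adjustment over all miRNAs of a fit and a threshold of 0.05. Alternatives tried were DESeq2 1.42.0 and edgeR 4.0.16 on the recovered reads, other scalings (RLE factors, library totals), another pseudocount, no filter, left-out libraries and either kind of MS2 library alone. The limma fit was tested on simulated data. Shares were compared by exact permutation with scipy 1.17.1, and figures were drawn with matplotlib 3.10.9. The text names the members, cluster partners and other myomiRs, and the 5 miRNAs most correlated with miR-133a-3p. Members, lists and markers were chosen with earlier results of these data known.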

Additional observations from a re-analysis of the deposited data

Results flagged for a closer look

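The difference of the bait effect between the states passed the limma threshold for miR-133a-5p, at 3.54 ± 0.62 on the log2(CPM + 10) scale (adjusted p = 0.00761). It had 38, 50 and 35 reads with the MRTF-A bait and 0, 0 and 1 in the MS2 control of differentiated cells, and 0 reads in all 6 undifferentiated eluates, where 3 reads are worth 24.9 to 98.5 CPM. The value repeats the differentiated fold change, and the filter on low values, which the name passed through the differentiated bait libraries alone, fixed its direction. edgeR (adjusted p = 1.00) and DESeq2 (adjusted p = 0.344) did not call it.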

How the results depend on the processing

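Of 173 values of the miR-133 names under other settings, left-out libraries aside, 143 kept their direction and side of the threshold and 30 did not. None of the 30 concerned the input comparison, or the MRTF-A eluates between states, whose direction the filter fixed. The cause was not tested. For bait against control in differentiated cells (limma unless a tool is named), miR-133a-3p did not pass with a pseudocount of 1 CPM (2.88, adjusted p = 0.151), RLE factors (1.95) or library totals (1.43). The MS2 libraries with few human-named reads (low-share below) hold 1 differentiated library, C, and those with many (high-share) 1 undifferentiated library, A, so these fits set an arm of 1 control library, assumed to vary like the others, and decide no call. Low-share, miR-133a-3p was at 2.28. miR-133b-3p turned to -0.89 with RLE factors, -1.39 with library totals, -0.098 with edgeR, -0.82 with DESeq2 and -0.79 low-share. The summed reads of both 3p names gave 2.64 (adjusted p = 0.00839), which is counted among the 30 under miR-133b-3p. With the bait miR-133a-3p held on average 97.3% of these reads, so that value is no call of miR-133b-3p. miR-133a-5p did not pass with DESeq2 (3.13). In undifferentiated cells miR-133a-3p was at 0.96 high-share, against 1 library with 0 reads of it. The difference between states of miR-133a-5p did not pass with no filter (3.54, adjusted p = 0.115), library totals (2.48), edgeR (3.90) or DESeq2 (4.36), and was 2.28 low-share. That of miR-133a-3p passed with DESeq2 (3.21, adjusted p = 0.0359), and that of miR-133b-3p turned to -0.62 with RLE factors, -0.91 with library totals and -0.52 low-share. For MRTF-A eluate against differentiated input, miR-133a-5p did not pass with a pseudocount of 1 CPM (2.26) or library totals (0.92), while miR-133a-3p passed with library totals (-2.72), edgeR (-1.53), DESeq2 (-1.59) and summed reads (-1.96). For the control against differentiated input, miR-133a-5p did not pass with edgeR (-1.91) or DESeq2 (-1.002), and was -0.32 low-share, against the library with its 1 read.

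Leaving out each library in turn ended no call in the input, where the range was 5.73 to 7.21 for miR-133a-3p, 3.61 to 5.24 for miR-133b-3p and 31.7 to 34.8 points for their share. In bait against control miR-133b-3p ranged from -0.22 to 0.42 in differentiated cells, and miR-133a-3p from -1.55 to 0.079 in undifferentiated cells. The difference between states was 2.79 to 4.42 for miR-133a-3p (it passed without undifferentiated MRTF-A library C or MS2 library A), -0.27 to 0.51 for miR-133b-3p, and 3.23 to 4.18 for miR-133a-5p (not passed without differentiated MS2 library B, adjusted p = 0.0543). In the other comparisons the 3 names kept their direction and side of the threshold.

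Of 169 miRNAs, 22 were called in the difference between states, against 11 with a pseudocount of 1 CPM, 2 with no filter, 14 with library totals, 13 with DESeq2, 13 low-share, 0 with edgeR (40 at an unadjusted p under 0.05) and 4 to 30 with a library left out, fewest without differentiated MS2 library B. For MRTF-A eluate against differentiated input 189 were called, against 307 with no filter. No paired analysis was possible because the columns do not carry the replicate numbers of the labels. Depth limits the MS2 control most.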
